A study of Mus musculus with 4 samples.

Results

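Imprinted genes are transcribed mainly from the copy inherited from 1 parent, and 38 mouse genes of this kind, from 18 clusters, were followed in embryonic stem (ES) cells that were heterozygous or null for Sall4. The genes were taken by symbol, each read by the probe set with the highest mean signal among those annotated to that gene alone. Of the 38, 35 were read, out of 18193 genes read on the array, and 30 passed the filter on low signals, out of 12483 genes tested. By textbook assignment 20 of the 38 are paternally expressed and 17 maternally expressed, while for Gnas the parent differs between transcripts. An array probe set sums both parental copies, so a level here says nothing of which copy was read.

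Mouse E14.1 ES cells were grown as 4 cultures, and total RNA of each was labelled with biotin as cRNA and hybridised to 1 Affymetrix array. The heterozygous cells carried 1 floxed and 1 deleted Sall4 allele (flox/-, line HET18), and the null cells carried delta/- (line KO1). Sall4 encodes a zinc finger transcription factor of ES cells. Both lines were kept on gelatin alone and also on blasticidin-resistant mouse embryonic fibroblasts (MEF), the feeder cells. All cultures shared LIF, blasticidin and a blasticidin-resistance gene (BSD) targeted to Oct3/4 genomic regions, a design that selects for cells expressing Oct3/4. Each genotype was 1 line and each of the 4 groups 1 array, so a difference between genotypes cannot be told apart from one between lines or cultures. A feeder difference likewise cannot be told apart from one between single cultures. The number of arrays bounds how precise any value can be.

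Imprinting rests on marks set in the egg or sperm, mostly DNA methylation at control regions, which the embryo keeps through early development. Many imprinted genes act on growth, with paternally expressed genes such as Igf2 often promoting it and maternally expressed ones such as Cdkn1c and Grb10 often restraining it. In cultured ES cells imprinted genes are known to vary between lines and culture conditions, and the Dlk1-Meg3 and H19-Igf2 clusters are the usual examples. Some genes, Sfmbt2 and Slc38a4 among them, are known to owe their imprint to maternal histone H3 methylation rather than to DNA methylation.

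The sequences 250 bases upstream of an annotated start are shown for 6 of the genes, because these carry the results. Peg3, Slc38a4 and Sfmbt2 had the largest genotype differences among members above the median signal on all 4 arrays. Meg3 and Mest were called by feeders and hold a motif searched for, and Grb10 had the largest feeder difference. The sequences come from RefSeq (GRCm38.p6), are written on the gene's strand, and show in capitals each match to TGCCGC, the letters bound by ZFP57, a zinc finger protein that keeps methylation at imprinted regions, or to TGACGTCA, the cyclic AMP response element, with the other strand searched too (GCGGCA for the first, while the second reads alike on both). The intervals are chr7:6730420-6730669 on the minus strand for Peg3, chr15:97031214-97031463 on the minus strand for Slc38a4, chr2:10372186-10372435 on the plus strand for Sfmbt2, chr12:109540746-109540995 on the plus strand for Meg3, chr6:30737800-30738049 on the plus strand for Mest and chr11:12037421-12037670 on the minus strand for Grb10.
Peg3: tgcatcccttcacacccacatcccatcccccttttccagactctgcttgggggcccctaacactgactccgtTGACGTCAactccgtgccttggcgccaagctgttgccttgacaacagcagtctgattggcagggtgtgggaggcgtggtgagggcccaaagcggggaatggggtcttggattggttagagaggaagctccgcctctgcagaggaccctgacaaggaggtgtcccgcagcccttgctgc
Slc38a4: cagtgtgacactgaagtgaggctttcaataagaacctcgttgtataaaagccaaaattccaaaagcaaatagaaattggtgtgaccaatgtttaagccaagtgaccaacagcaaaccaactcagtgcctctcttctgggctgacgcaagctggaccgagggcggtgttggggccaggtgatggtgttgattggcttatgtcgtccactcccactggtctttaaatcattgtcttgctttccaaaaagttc
Sfmbt2: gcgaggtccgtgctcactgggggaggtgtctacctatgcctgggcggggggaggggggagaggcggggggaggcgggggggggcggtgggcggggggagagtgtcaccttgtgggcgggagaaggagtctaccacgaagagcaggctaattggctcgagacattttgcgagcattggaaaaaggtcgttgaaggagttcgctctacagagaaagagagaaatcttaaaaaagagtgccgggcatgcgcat
Meg3: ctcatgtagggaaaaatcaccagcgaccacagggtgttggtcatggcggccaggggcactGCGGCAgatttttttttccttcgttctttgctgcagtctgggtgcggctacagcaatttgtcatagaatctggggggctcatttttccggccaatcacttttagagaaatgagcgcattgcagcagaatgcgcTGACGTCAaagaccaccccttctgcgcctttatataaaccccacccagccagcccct
Mest: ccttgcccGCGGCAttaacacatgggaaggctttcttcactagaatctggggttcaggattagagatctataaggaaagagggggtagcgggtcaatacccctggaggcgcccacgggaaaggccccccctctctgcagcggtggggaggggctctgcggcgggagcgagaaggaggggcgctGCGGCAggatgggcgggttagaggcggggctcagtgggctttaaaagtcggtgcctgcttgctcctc
Grb10: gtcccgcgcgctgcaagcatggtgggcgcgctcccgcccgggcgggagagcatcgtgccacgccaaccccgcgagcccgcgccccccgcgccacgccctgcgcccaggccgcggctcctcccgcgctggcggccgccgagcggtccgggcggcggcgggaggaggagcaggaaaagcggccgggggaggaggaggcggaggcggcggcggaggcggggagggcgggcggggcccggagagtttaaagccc

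A RefSeq window was matched for 33 of the 38 members. With the window of most CpG taken for each member, TGCCGC occurred in 7 of 33 windows (21.2%), those of Zim1, Meg3, Mest, Copg2, Osbpl5, Plagl1 and Nap1l5, against 8.68% of all 32851 windows of the same length. TGACGTCA occurred in 2 of 33 (6.06%), those of Peg3 and Meg3, against 1.55% of all. The member windows had a median of 12 CpG, against 6 over all windows, and choosing the window richest in CpG raises the member values: over all 52 member windows the median was 9 and TGCCGC occurred in 15.4%. The printed windows hold 8 CpG for Peg3, 5 for Slc38a4, 15 for Sfmbt2, 10 for Meg3, 14 for Mest and 40 for Grb10. A match is a string of letters in a window and not a bound site.

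Signals are linear MAS5 values, scaled to a 2% trimmed mean of 100 on each array, and the median of all signals was 17.1. They are given below in the order heterozygous then null without feeders, heterozygous then null on feeders. Differences are log2(signal + 4.6), where 4.6 is the 25th percentile of all signals, and the offset draws the differences of weak signals towards 0. The fitted difference comes from limma with 1 genotype and 1 feeder term over all 12483 genes, with Benjamini-Hochberg adjusted p-values and a threshold of 0.05. That model leaves 1 residual degree of freedom per gene, which is the difference between both genotype effects, so no replicate spread enters its p-values. Beside it, a size rule without a test counted a gene at least 2-fold apart, the same way in both pairs of arrays, and, in every pair, above 17.1 on the brighter array.

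All 12 ES cell markers were above the median signal on all 4 arrays, and their summed signal lay between 17422 and 22910. Sall4 itself read 1127, 1671, 781 and 1452 by its brighter probe set and 147, 381, 88.6 and 219 by the other, so both read higher on the arrays labelled null. The sources used here do not place these probe sets relative to the deleted part, and the genotypes rest on the labels. The 22 embryonic fibroblast markers summed to 3206, 8487, 20236 and 28019, with 13, 19, 22 and 22 of them above the median signal. Without feeders 19 of the 22 read higher on the null array and 3 lower. Col3a1 differed most, at 19.2 on the heterozygous and 244 on the null array, then Tnc (29.3 and 224). Col1a1 and Lum were near 0 on the heterozygous array (1.5 and 1.3) and at 36.0 and 17.3 on the null array. The 3 lower were Col1a2 (38.4 and 36.2), Thy1 (20.8 and 15.7) and Pdgfra (42.5 and 35.7). The trophoblast markers summed to between 655 and 824, the neural markers to between 210 and 352, and the primitive endoderm markers to between 80.2 and 163.

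**Figure D1:**
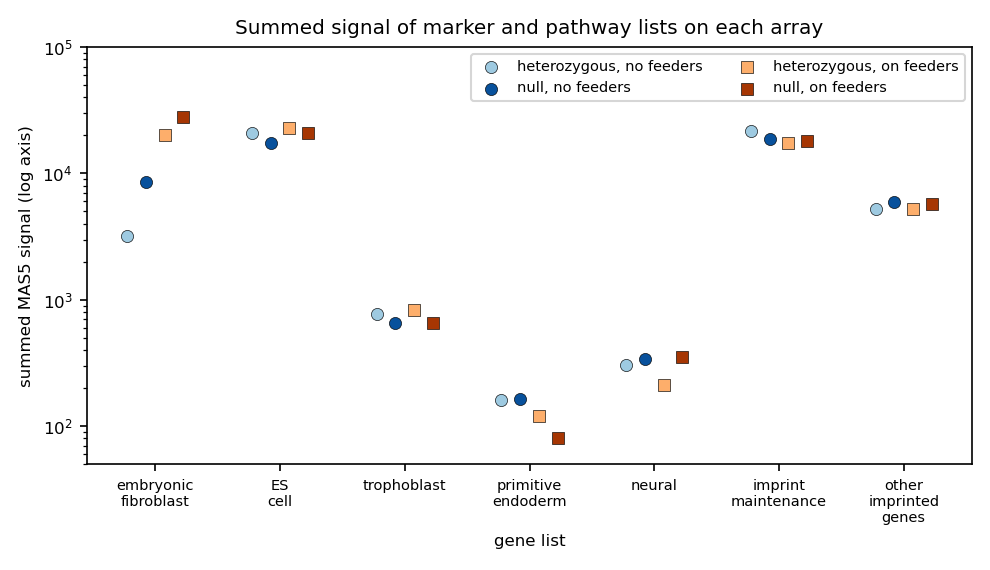
Summed MAS5 signal (log axis) of 7 gene lists on each of the 4 arrays, 1 point per array. The embryonic fibroblast list spans 3206 to 28019, with both arrays on feeders highest, while the ES cell list stays between 17422 and 22910.

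Of the 35 members read, 24 were above the median signal on all 4 arrays, 6 on some and 5 on none. The members with the highest mean signals were Cd81, Igf2, Meg3, Gnas and Ube3a. The 5 below the median on all arrays, Zim1, Usp29, Slc22a18, Asb4 and Rasgrf1, read between 0.5 and 16.5 and were not tested. H19 was not read, since its probe set is shared with Mir675, and Slc22a3 and Zrsr1 had no probe set listed.

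**Figure D2:**
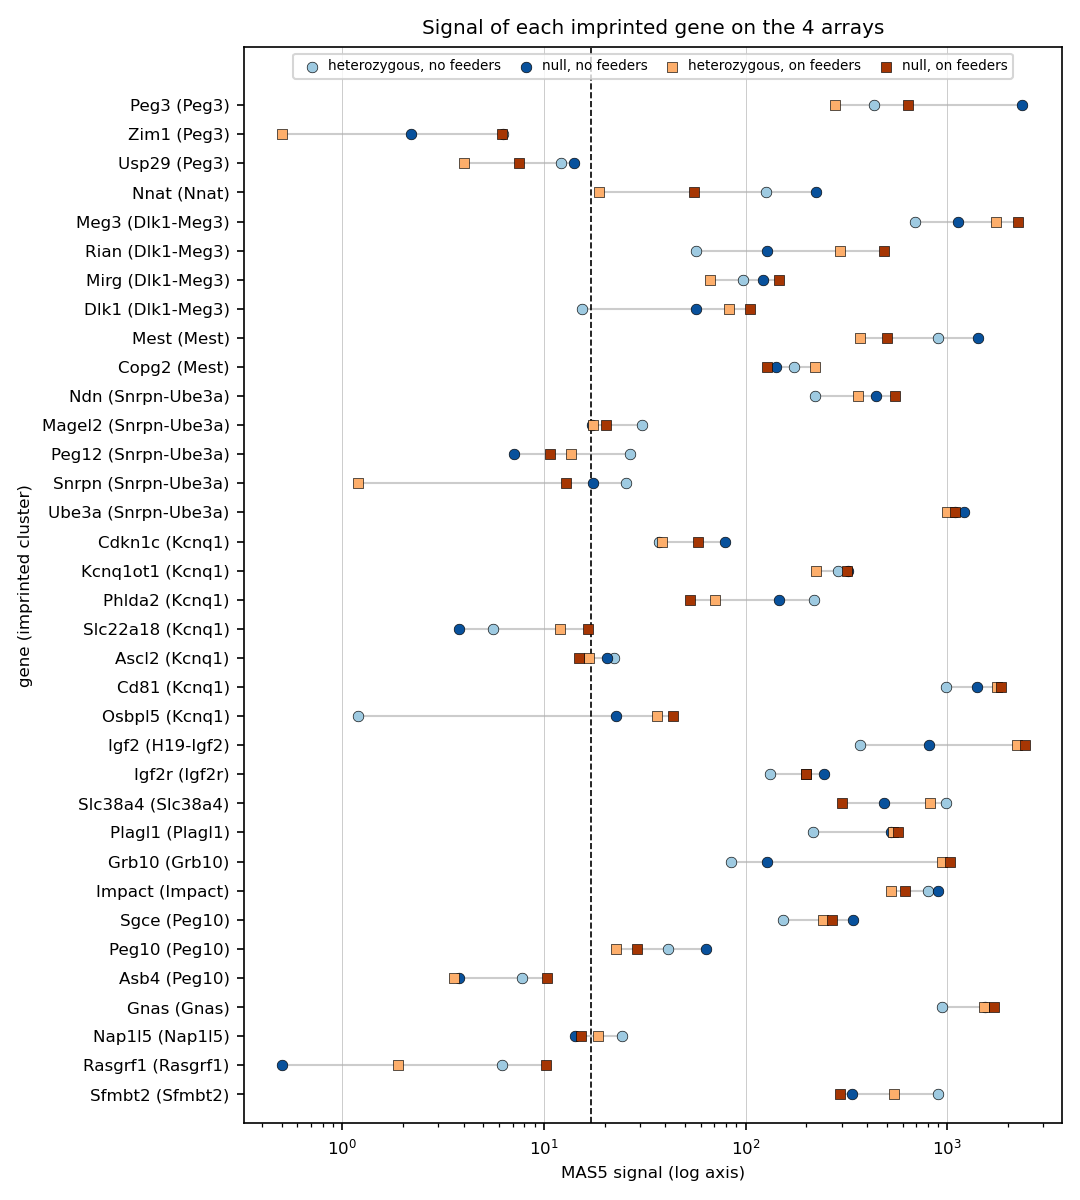
MAS5 signal (log axis) of the 35 imprinted genes read, with 1 point per array and the cluster in brackets; the dashed line is the median of all signals, 17.1. Grb10 and Igf2 separate the arrays by feeders, and Slc38a4 and Sfmbt2 separate them by genotype. The shares of all tested genes that separate in these ways are not given here.

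The first comparison asks how imprinted genes differ between Sall4-null and heterozygous ES cells. Peg3 was the member furthest above the heterozygous level in null cells, and Slc38a4 and Sfmbt2 were the members furthest below it. Ndn, Nnat and the non-coding RNAs Rian, Meg3 and Mirg also read higher in null cells in both feeder conditions. No tested member passed the adjusted threshold in limma, which called 0.016% of all tested genes higher and 0.032% lower between genotypes, 6 genes in all. At an unadjusted p under 0.05, 12 of the 30 tested members were higher and 4 lower, against 5.82% and 6.53% of all tested genes. The members were chosen with earlier results of these data known. Their counts and medians, here and below, are therefore a description and not an independent test.

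The size rule took 1 tested member higher (Peg3) and 1 lower (Slc38a4), against 0.336% and 0.809% of all tested genes. Without feeders 8 members were at least 2-fold higher in null cells and 3 lower, counting pairs whose brighter array was above 17.1, against 3.82% and 3.02% of all tested genes. On feeders 3 were higher and 1 lower, against 1.4% and 2.14%. Of the 30, 21 read higher in null cells in both pairs, 7 lower in both and 2 in opposite directions, against 30.5% and 29.1% of all tested genes that were higher or lower in both. The median difference of the tested members was 0.57 without feeders and 0.18 on feeders, against 0.00 and 0.01 over all tested genes. The 17 paternally expressed genes had medians of 0.58 and 0.22, and the 12 maternally expressed genes 0.54 and 0.12. Both parental classes thus had medians above 0 in both conditions.

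Among the fibroblast markers the median genotype difference was 1.37 without feeders and 0.45 on feeders, with 19 and 22 of 22 above 0. Limma called 0 of the 22 between genotypes. At an unadjusted p under 0.05, 15 were higher and 0 lower, against 5.82% and 6.53% of all tested genes. Lum (1.3, 17.3, 182 and 408) and Twist2 (1.7, 26.3, 89.6 and 193) met the size rule upwards. The ES cell markers had medians of -0.44 and -0.26, with 7 of 12 lower at an unadjusted p under 0.05, and Fgf4 (401, 103, 516 and 167) and Dppa3 met the size rule downwards. Sox1 and Zic1 of the neural list and Plac1 of the trophoblast list met it upwards, with Sox1 at 20.7, 47.3, 4.0 and 68.8. The part of these lists in the genotype differences of the imprinted genes was not tested.

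**Figure D3:**
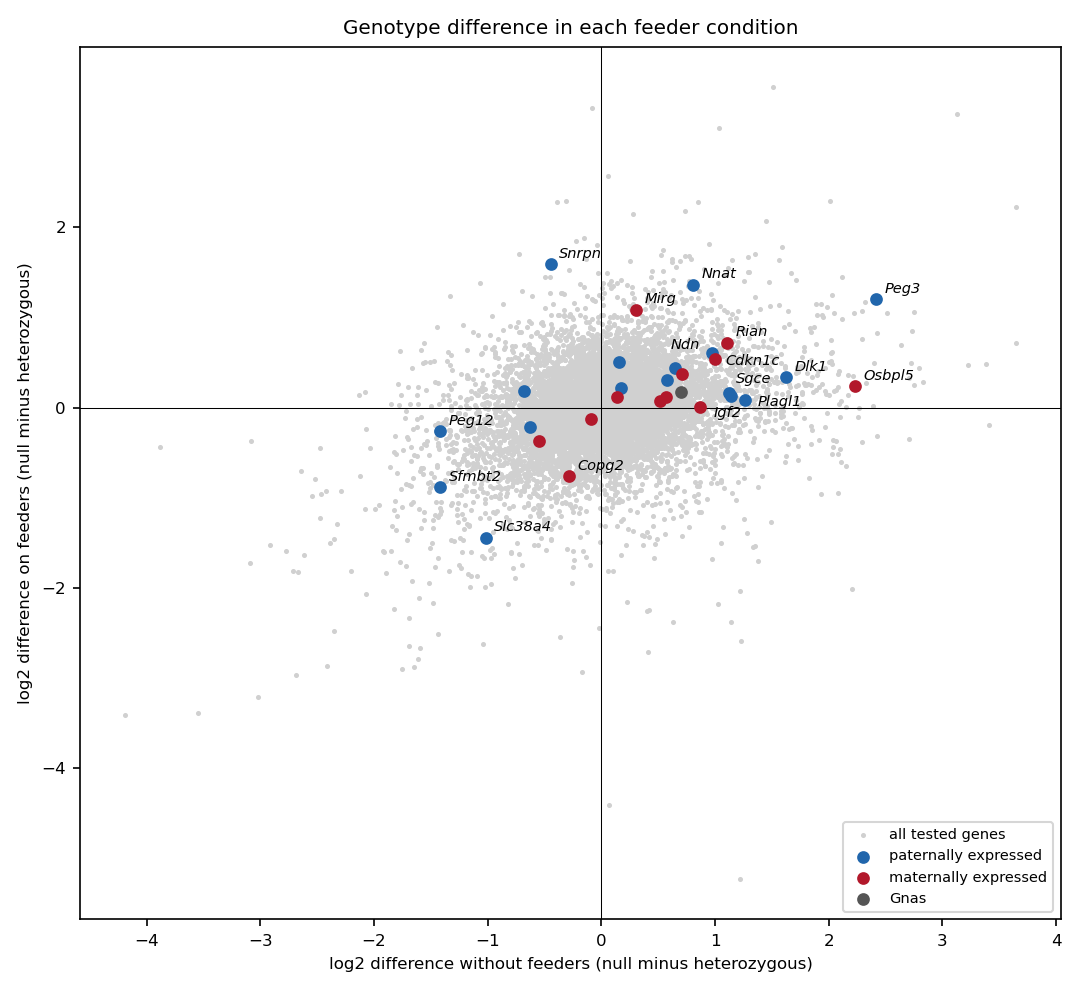
Difference between null and heterozygous cells (log2) without feeders on the horizontal axis and on feeders on the vertical axis, with 1 point per tested gene and the 30 imprinted genes in colour by parental class. Peg3 lies at 2.42 and 1.20, and Slc38a4 and Sfmbt2 lie below 0 on both axes.

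Peg3, a paternally expressed zinc finger gene, read 435, 2346, 276 and 641. Both null arrays were above both heterozygous arrays, and the null array without feeders stood highest by far. The share of all tested genes that separate by genotype in this way is not given here. Such separation, for Peg3 and the genes below, therefore has no background to be read against. For Peg3 the difference was 2.42 without feeders and 1.20 on feeders, and the fitted difference was 1.81 (SE 0.28; limma adjusted p = 0.150). Its other 2 probe sets above the median signal differed the same way, by 2.56 and 2.79 without feeders. In the same cluster Zim1, a maternally expressed zinc finger gene, and Usp29, a paternally expressed deubiquitinase gene, stayed below the median signal on all 4 arrays.

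Slc38a4, a paternally expressed neutral amino acid transporter gene, read 989, 487, 825 and 301. Both null arrays were below both heterozygous ones, by 1.02 without feeders and 1.44 on feeders when taken as log2 sizes, and the fitted difference was -1.23 (SE 0.15; limma adjusted p = 0.106). Sfmbt2, a paternally expressed gene for a Polycomb-group protein, read 903, 336, 542 and 293. It too was lower on both null arrays, with pair differences of -1.41 and -0.88 and a fitted difference of -1.15 (SE 0.17; limma adjusted p = 0.144). For each of these genes a second probe set above the median signal was lower in null cells in both pairs.

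Nnat, a paternally expressed gene for the small membrane protein neuronatin, read 126, 224, 18.7 and 55.3. The null array was higher within each feeder condition, but the null array on feeders was below the heterozygous array without them. The fitted difference was 1.09 (SE 0.23; limma adjusted p = 0.187).

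In the Dlk1-Meg3 cluster the 3 maternally expressed non-coding RNAs and the paternally expressed Dlk1, which encodes a membrane protein of the Notch ligand type, all read higher on the null array of each pair. Rian, a host of small nucleolar RNAs, read 56.8, 128, 293 and 485, with a fitted genotype difference of 0.91 (SE 0.19; limma adjusted p = 0.182). Meg3 read 691, 1133, 1744 and 2252, and its fitted difference was 0.54 (SE 0.12; limma adjusted p = 0.208). Mirg, a host of microRNAs, read 97.5, 122, 66.4 and 146, so that its difference was 0.31 without feeders and 1.08 on them. Dlk1 read 15.4, 57.0, 82.6 and 106, with differences of 1.62 without feeders and 0.34 on them. The heterozygous array without feeders was the lowest of the 4 for Meg3, Rian and Dlk1.

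Within the Snrpn-Ube3a cluster Ndn, which encodes the MAGE-family protein necdin, read 222, 442, 359 and 549. Both null arrays were above both heterozygous ones, and the fitted difference was 0.79 (SE 0.16; limma adjusted p = 0.183). Ube3a, a ubiquitin ligase gene expressed maternally in neurons, read 1098, 1208, 1001 and 1088, a narrow range. Magel2 read 30.7, 17.4, 17.5 and 20.4, and Peg12 read 26.7, 7.1, 13.7 and 10.7. Snrpn, which encodes a splicing protein, read 25.5, 17.5, 1.2 and 12.9 by its 1 probe set not shared with Snurf. These last 3 were dim, with Snrpn at 1.2 under the offset on 1 array and Peg12 at 7.1 under the filter signal of 9.46 on another, and Magel2 and Snrpn differed in opposite directions in the 2 pairs.

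In the Kcnq1 cluster Cdkn1c, which encodes the cell cycle inhibitor p57, read 37.1, 78.9, 38.5 and 58.0. It was higher on both null arrays, with a fitted difference of 0.77 (SE 0.23; limma adjusted p = 0.299). Phlda2, a restrainer of placental growth, read 217, 147, 70.5 and 53.3, lower in null cells in both pairs. Kcnq1ot1, the paternally expressed antisense RNA that silences its neighbours in cis, read 288, 321, 225 and 320. Cd81, which encodes a tetraspanin, read 987, 1411, 1757 and 1843. Ascl2, a trophoblast transcription factor gene, read 22.2, 20.5, 16.8 and 15, close to the median signal throughout. Osbpl5, a lipid transfer protein gene, read 1.2, 22.7, 36.4 and 43.7, so its genotype difference of 2.23 without feeders rests on 1 array near 0.

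Igf2, the fetal growth factor gene, read 368, 816, 2219 and 2425, and its genotype difference was 1.14 without feeders and 0.13 on them. Igf2r, whose receptor clears IGF2, read 132, 246, 199 and 200, with differences of 0.87 and 0.01. Plagl1, a growth-regulating zinc finger gene, read 215, 524, 536 and 569, with differences of 1.27 and 0.09. Sgce, the epsilon-sarcoglycan gene, read 154, 341, 241 and 270, with differences of 1.13 and 0.16. For these 4 genes the heterozygous array without feeders was the lowest of the 4, and for all but Igf2 the other arrays lay closer together. That array enters both the genotype difference without feeders and the feeder difference of heterozygous cells, so those differences share it.

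The genotype difference moved by over 1 log2 unit between the feeder conditions in 7 of the 30 tested members, against 8.42% of all tested genes. It was smaller on feeders for Osbpl5, Dlk1, Peg3, Plagl1 and Igf2. For Snrpn and Peg12 it was higher on feeders, and for these and Osbpl5 it rests on an array with a signal below 9.46. With 1 array a group this contrast has no test.

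The other members read as follows. Mest, whose product belongs to a hydrolase-fold family, read 903, 1414, 370 and 504, and Copg2, its neighbour encoding a vesicle coat subunit, read 173, 141, 220 and 128. Mest was higher and Copg2 lower on the null array of each pair. Grb10, an adaptor that dampens insulin and IGF receptor signalling, read 84.3, 127, 946 and 1027. Gnas, the stimulatory G protein alpha subunit gene, read 942, 1530, 1516 and 1713. Peg10, a retrotransposon-derived placental gene, read 41.4, 64.0, 22.7 and 29.0, and Impact, a regulator of the GCN2 kinase, read 800, 902, 526 and 614. Nap1l5, a nucleosome assembly protein-like gene, read 24.4, 14.2, 18.6 and 15.3. All of these except Copg2 and Nap1l5 were higher on the null array of each pair, by at most 0.70 log2 units.

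The second comparison asks how the same genes differed between cultures with and without feeders. Grb10, Rian, Igf2 and Meg3 rose and Nnat, Phlda2 and Mest fell on feeders, 7 of the 30 tested members. Limma called 4 members higher and 3 lower, against 4.01% and 0.921% of all tested genes. The size rule took 3 higher (Grb10, Igf2 and Rian) and 3 lower (Mest, Nnat and Phlda2), against 4.04% and 0.521%. The called members include paternally and maternally expressed genes on both sides.

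In heterozygous cells 7 members were at least 2-fold higher on feeders and 4 lower, against 7.89% and 1.65% of all tested genes. In null cells 3 were higher and 5 lower, against 6.41% and 2.35%. Over both pairs, 10 of the 30 tested members read higher on feeders in both genotypes, 12 lower in both and 8 in opposite directions, against 37.1% and 30.1% of all tested genes that were higher or lower in both. The median difference of the tested members was -0.20 in heterozygous and -0.07 in null cells, against 0.03 and 0.04 over all tested genes. Both turned sign with another filter, the first to 0.19 when genes under the 60th percentile were left out, the second to 0.082 when none were. The paternally expressed genes had medians of -0.60 and -0.20 and the maternally expressed ones 0.46 and 0.06.

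Cultures on feeders hold RNA of the fibroblasts as well, and in bulk RNA a change in the number of cells of a type and a change in RNA per cell cannot be told apart. The fibroblast markers had median feeder differences of 4.66 in heterozygous and 3.01 in null cells. Limma called 19 of these 22 markers higher on feeders, against 4.01% of all tested genes. The part of these markers in the feeder differences of the imprinted genes was not tested.

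Grb10 rose most, by 3.42 in heterozygous and 2.97 in null cells, with a fitted difference of 3.19 (SE 0.17; limma adjusted p = 0.00127). Its signals on feeders, 946 and 1027, were far above the 84.3 and 127 without them, and its 2 dimmer probe sets were also higher on feeders in both genotypes. Igf2 rose by a fitted 2.07 (SE 0.23; limma adjusted p = 0.010), and both its arrays on feeders stood above both without. Rian rose by 2.08 (SE 0.19; limma adjusted p = 0.00499) and Meg3 by 1.16 (SE 0.12; limma adjusted p = 0.00758), both read by their brightest probe set. For Meg3 and Rian too, each array on feeders was above each array without.

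Nnat fell by 2.21 on the log2 scale (SE 0.23; limma adjusted p = 0.00758), from 126 and 224 to 18.7 and 55.3. Mest fell by 1.38 (SE 0.13; limma adjusted p = 0.00531), from 903 and 1414 to 370 and 504. Phlda2 fell by 1.48 (SE 0.19; limma adjusted p = 0.0143), from 217 and 147 to 70.5 and 53.3. For all 3 genes both arrays on feeders were below both arrays without. Of the 6 tested trophoblast markers 3, Cdx2, Gata3 and Plac1, also fell on feeders in limma, against 0.921% of all tested genes. Plac1 read 24.1, 113, 6.6 and 22.0. Tfap2c, at 634, 347, 724 and 578, had a fitted feeder difference of 0.46 (limma adjusted p = 0.197) and Eomes, at 42.5, 42.1, 59.0 and 21.2, differed in opposite directions in the 2 genotypes. The part of that list in the Phlda2 difference was not tested. Without a variance trend the limma calls of Igf2, Meg3, Mest and Phlda2 were lost (adjusted p from 0.0642 to 0.106), and with feeders as the only term all but that of Grb10 were lost (0.0638 to 0.124).

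Several members stood apart by feeders without passing. Osbpl5 had a fitted difference of 1.82 (limma adjusted p = 0.116), with pair values of 2.82 in heterozygous and 0.82 in null cells. The first of these rests on the signal of 1.2 on the heterozygous array without feeders. Dlk1 had a fitted difference of 1.48 (limma adjusted p = 0.0747), with pair values of 2.12 in heterozygous and 0.84 in null cells. Peg3 had -1.26 (limma adjusted p = 0.0709), with pair values of -1.86 in null and -0.65 in heterozygous cells. Peg10 had -0.89 (limma adjusted p = 0.107), Cd81 had 0.61 (limma adjusted p = 0.0642) and Impact had -0.58 (limma adjusted p = 0.0569). For each of these except Peg3 the arrays with and without feeders did not overlap. The share of all tested genes that separate by feeders in this way is not given here. The separation of these genes, and of the called members above, therefore has no background to be read against.

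**Figure D4:**
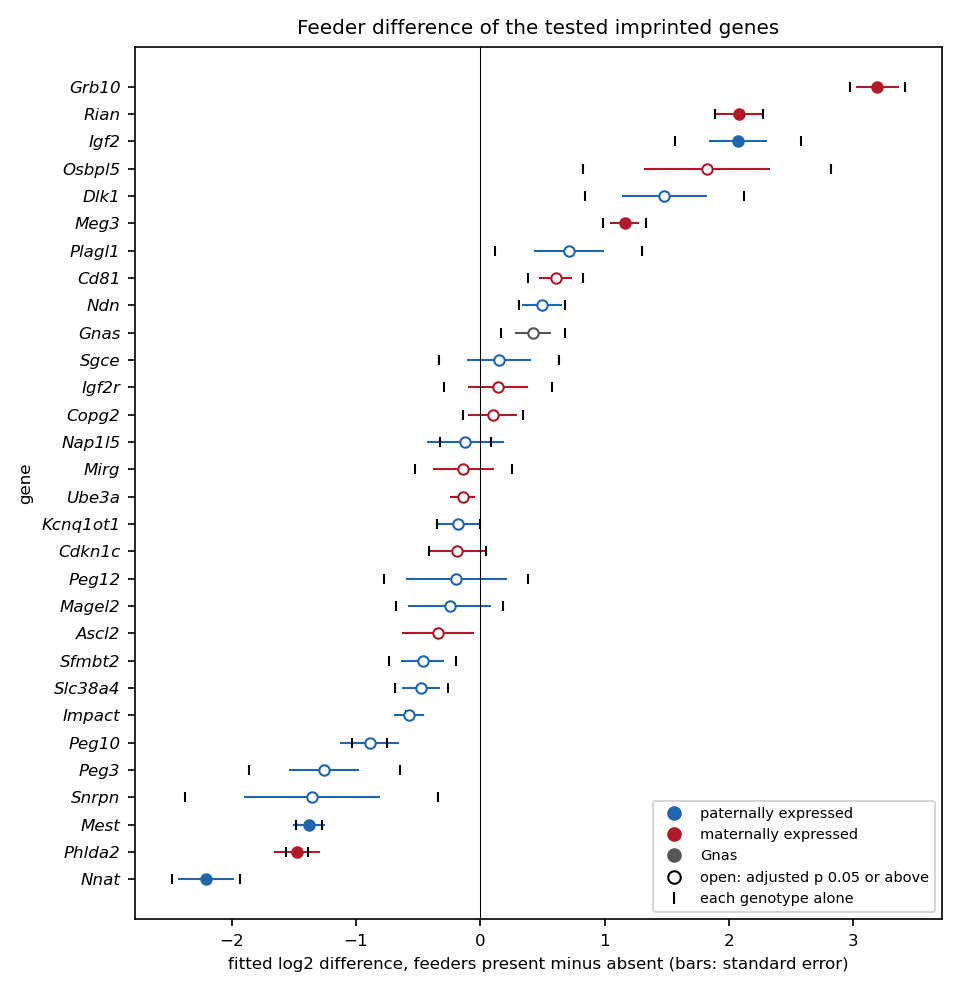
Fitted feeder difference (log2, feeders present minus absent) of the 30 tested imprinted genes, with bars for the standard error, ticks for each genotype alone and filled points where the adjusted p was under 0.05. The 7 filled points are Grb10, Rian, Igf2 and Meg3 above 0 and Mest, Phlda2 and Nnat below it.

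Probe sets of the same gene did not always give the same feeder difference. All 4 Rian probe sets read higher in null cells in both pairs, but 2 were higher and 2 lower on feeders in both genotypes. The brightest read 56.8, 128, 293 and 485, whereas the third by brightness read 76.9, 135, 23.4 and 45.3. With the mean over its probe sets in place of the brightest, the feeder difference of Rian was 0.30 (limma adjusted p = 0.365) and that of Meg3 0.58 (limma adjusted p = 0.132). Of 11 Meg3 probe sets above the median signal on an array, 9 were higher in null cells in both pairs and 7 higher on feeders in both genotypes. The feeder calls of Rian and Meg3 therefore belong to their bright probe sets, while Igf2 (2 of 2) and Grb10 (3 of 3) were higher on feeders by every probe set above the median signal.

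All 5 Ndn probe sets above the median signal were higher in null cells in both pairs. The same held for only 2 of 6 Ube3a, 2 of 5 Kcnq1ot1 and 1 of 2 Impact probe sets, and 0 were lower in both. These 3 genes count as higher in both pairs by their brightest probe set. The Plagl1 difference rests on 1 bright probe set, whose second read at most 17.7, and with the mean of probe sets the fitted genotype difference of Plagl1 was -0.12. The brightest probe sets of Meg3, Ndn and Plagl1 are of the x_at kind, which can bind several related transcripts.

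**Figure D5:**
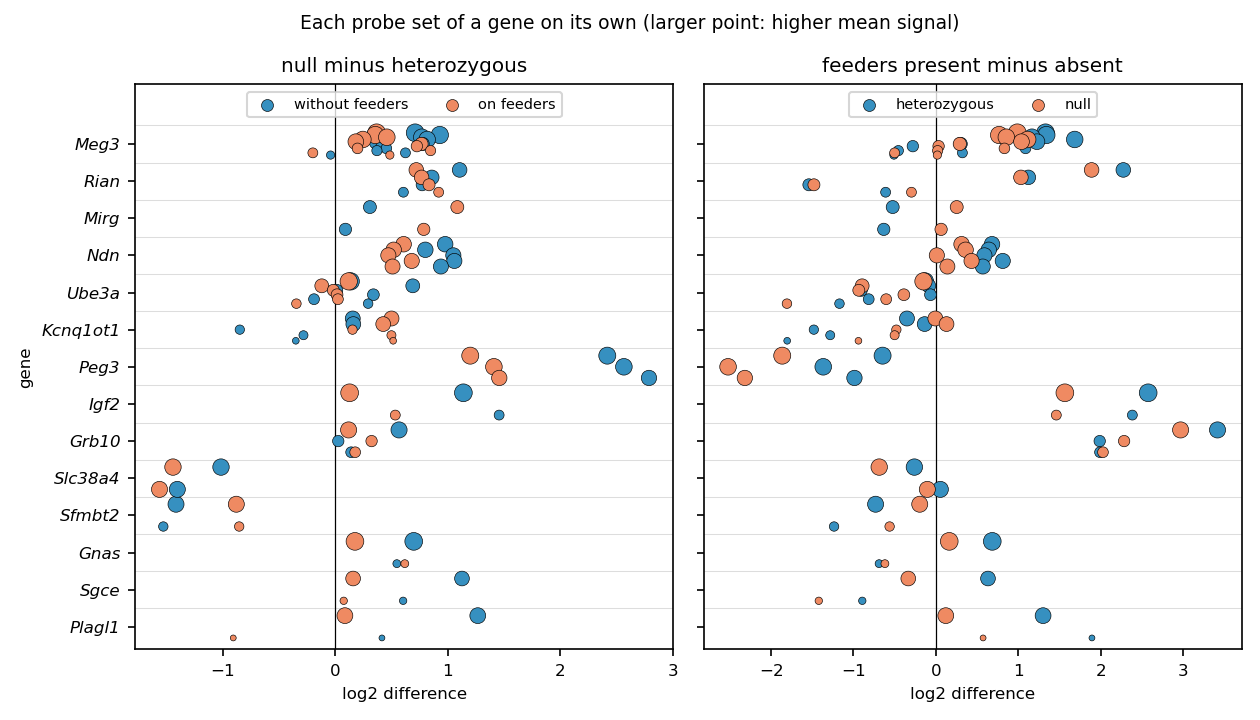
Log2 differences of each probe set above the median signal on an array for 14 imprinted genes, between genotypes on the left and by feeders on the right; the 2 colours are the feeder conditions on the left and the genotypes on the right, and larger points have a higher mean signal. The Rian probe sets lie together on the left and on both sides of 0 on the right.

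Genes linked to imprints and DNA methylation formed a separate list of 23, of which 22 were read and 21 tested. Besides genes that keep imprints, it holds those of the de novo methyltransferases and Tet1, Tet2 and Tet3. The highest mean signals, which do not order expression between probe sets, were those of Trim28, the corepressor recruited by ZFP57, at 3233, 3334, 2894 and 3111, of Eed, a Polycomb subunit, at 2226, 2202, 2098 and 2256, and of the de novo methyltransferase gene Dnmt3b, at 2446, 1372, 1301 and 1232. Zfp57 read 93.7, 91.5, 106 and 93.8, and Dnmt1, the maintenance methyltransferase gene, read 553, 566, 517 and 583. Limma called 0 of the 21 between genotypes. At an unadjusted p under 0.05, 0 were higher and 2 lower, against 5.82% and 6.53% of all tested genes. Dppa3, whose product protects methylation in the early embryo, read 219, 29.5, 252 and 68.4, lower on both null arrays, and met the size rule (fitted difference -2.26; limma adjusted p = 0.104). Dnmt3l, the cofactor of the de novo methyltransferases, fell on feeders from 1652 and 1759 to 1099 and 1220 (fitted difference -0.56; limma adjusted p = 0.0340).

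A further list of 43 imprinted genes outside the 38 had 33 read and 24 tested. The highest mean signals were those of Jade1, at 1567, 1483, 1206 and 1233, then Commd1 and Mcts2. Limma called 0 of the 24 between genotypes. At an unadjusted p under 0.05, 4 were higher and 1 lower, against 5.82% and 6.53% of all tested genes. The median genotype differences were 0.17 both without and on feeders, against 0.00 and 0.01 over all tested genes. Smoc1 read 54.1, 17.5, 94.0 and 39.8, lower on both null arrays, and met the size rule (fitted difference -1.28; limma adjusted p = 0.152). By feeders Dcn, the gene of a fibroblast matrix proteoglycan, rose from 18.4 and 23.6 to 390 and 633 (fitted difference 4.30; limma adjusted p = 0.000967). Zdbf2 fell on feeders from 314 and 623 to 162 and 300 (fitted difference -0.99; limma adjusted p = 0.0243), and Tnfrsf23, at 10.7, 15.4, 26.4 and 37.6, met the size rule upwards.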

How the data were processed

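Gene expression was measured in 4 samples, 1 array per Sall4 genotype and feeder condition. The values are linear MAS5 intensities as deposited by the authors, made with MAS5 per the submitters' processing notes (version not given in the sources used here), with no detection calls. No rescaling was needed, since every array had a 2% trimmed mean of 100. After 64 control probe sets were left out, 34945 probe sets had 1 gene symbol, 932 had several and 9160 none. The brightest probe set per gene was used, and genes under the 40th percentile of mean log2 signal (a signal of 9.46) were left out. limma 3.58.1 in R 4.3.3 fitted genotype and feeders additively with a variance trend (two-sided, 1 residual and 4.76 prior degrees of freedom). The script was tested on simulated data. There limma missed most of the genotype differences added, even at sizes above any fitted for a member. The lack of an adjusted call between genotypes therefore does not show that a member was unchanged.

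Signals on all 4 arrays were given for members above the median signal on at least 1 array. From the list of genes linked to imprints and that of further imprinted genes, the highest mean signals and the genes past a threshold were named. From the cell type marker lists only some such genes were named. Further genes (Zfp57, Dnmt1 and Ddc) were added after their values were seen. The members and lists were chosen with earlier results of these data known. Alternatives were another offset, other filters, the mean of probe sets, quantile or median scaling, no variance trend and 1 factor only. Reading each probe set on its own was chosen after seeing the data.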

Additional observations from a re-analysis of the deposited data

How the results depend on the processing

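No paired analysis was possible because each group has 1 array and no replicate numbers, though the model itself sets the genotypes side by side within each feeder condition. Leaving an array out leaves the model no residual degree of freedom, so values per pair stand in for it. Genes called between genotypes were 6, and 3 with the offset at the median signal; they were 0 without a filter, with the filter at the 60th percentile, without a variance trend and with 1 factor only. Genes called by feeders were 616, and 294 without a filter, 272 with the higher filter, 384 with the mean of probe sets, 190 without a trend and 243 with 1 factor. Genes meeting the size rule between genotypes were 143, and 59 with the other offset and 80 with the higher filter; by feeders they were 569, and 357 with the higher filter. Members meeting it between genotypes were 2, and 1 with the other offset or quantile scaling (Slc38a4 lost) or the mean of probe sets (Peg3 lost). The member median without feeders was 0.57, and 0.31 without a filter and 0.38 with the mean of probe sets. By feeders in heterozygous cells it was -0.20, and -0.32 without a filter and 0.19 with the higher filter. In null cells it was -0.07, and 0.082 without a filter and -0.19 with the mean of probe sets. Under the mean of probe sets 3 fitted differences reversed, which were the genotype difference of Plagl1 (-0.12) and the feeder differences of Gnas (-0.25) and Sgce (-0.50). The causes of these shifts were not tested. Of the 7 feeder calls among members, Meg3 and Rian were lost with the mean of probe sets, Igf2, Meg3, Mest and Phlda2 without a variance trend (limma adjusted p from 0.0642 to 0.106), and all but Grb10 with 1 factor only (0.0638 to 0.124). Impact was gained under median centring (-0.64; limma adjusted p = 0.0410). With 1 array a group the number of arrays limits every value, and no detection calls mark which dim signals exceed background.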

Other observations

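Probe sets of the long antisense RNA Kcnq1ot1 and of Ube3a did not all give the same feeder difference. Ube3a was lower on feeders in both genotypes by all 6 of its probe sets above the median signal on an array. The brightest differed by -0.13 in heterozygous and -0.15 in null cells and the dimmest by -1.17 and -1.81, with signals of 37.7, 47.2, 14.2 and 10.2. Of 5 Kcnq1ot1 probe sets, 4 were lower on feeders in both genotypes, and the third by brightness read 47.6, 24.4, 14.1 and 16.2 where the brightest read 288, 321, 225 and 320. The second Gnas probe set read 16.2, 25.8, 8.3 and 15.2, lower on feeders in both genotypes, while the brightest was higher in both. These differences have no test.

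Ddc, a neighbour of Grb10 that makes an amine-synthesis enzyme, read 301, 673, 207 and 331. Its fitted genotype difference was 0.91 (limma adjusted p = 0.175) and its fitted feeder difference -0.77 (limma adjusted p = 0.0747). Across the same arrays Grb10 had 0.34 by genotype and 3.19 by feeders.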
